A study of Bos taurus with 8 samples.

Results

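The genes described here are those of the bovine major histocompatibility complex (MHC) class II, together with CD74 and CIITA. They were taken as every gene of the count tables named CD74 or CIITA, or with a name that begins with BOLA-D or BLA-D, which gave 12 of 21880 genes: CD74 (ENSBTAG00000015228), BOLA-DRA (ENSBTAG00000010645), BLA-DQB (ENSBTAG00000019588), BOLA-DQB (ENSBTAG00000021077), BOLA-DQA5 (ENSBTAG00000038128), BOLA-DMA (ENSBTAG00000015730), BOLA-DMB (ENSBTAG00000012451), BOLA-DOA (ENSBTAG00000006490), BOLA-DOB (ENSBTAG00000047707), BOLA-DYA (ENSBTAG00000002581), BOLA-DYB (ENSBTAG00000045923) and CIITA (ENSBTAG00000020649). CD74 and BOLA-DRA were chosen by their measured fall in vascular endothelial cells between muscle and early culture, so that change is given as a description with no test.

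MHC class II molecules are surface dimers of an alpha and a beta chain that present peptides from the endosomal pathway to CD4 T cells. The invariant chain, encoded by CD74, escorts the new dimer to the endosome, where the DM molecule exchanges the last fragment of the invariant chain for a peptide and the DO molecule restrains DM. CIITA is the transactivator of these genes, and in tissue they are best known from macrophages, dendritic cells and B cells, with endothelium as a further site in large mammals.

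The cells came from semitendinosus muscle of 10 Belgian Blue cattle with no genetic change or treatment, 5 calves and 5 adults. Timepoint 1 was the cell suspension directly after collagenase digestion, and Timepoint 2 was passage 0, the adherent cells of each donor at 72 h of culture on fibronectin in a growth medium without serum. Timepoints 3, 4 and 5 were passages 2, 5 and 8 of cultures kept unsorted or sorted for satellite cells (SCs) or fibro-adipogenic progenitors (FAPs), each donor in 1 kind of culture. All donors of a timepoint were pooled in 1 library and told apart by genotype, with 10 donors at Timepoint 1 and 9 later, so that timepoint and library cannot be told apart.

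The 5 libraries held 36129 kept cells, between 2772 and 10405 each. The median number of transcript molecules counted by unique molecular identifier (UMI) was 4184 per cell at Timepoint 1 and between 18340 and 27239.5 later. Cells of different libraries shared 129 barcodes over all pairs of libraries. Levels are given as CPM, the UMIs of a gene scaled to a fixed total, of the summed cells of 1 donor and 1 deposited cell type, with at least 10 cells. Reads come from the 3′ end of the transcript, so CPM was not divided by length, and levels of different genes are set beside each other only as UMI counts.

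The deposited cell types carried their markers. Vascular endothelial cells (1166 cells at Timepoint 1) had all 7 of 7 listed markers, PECAM1, CDH5, VWF, KDR, FLT1, TEK and EMCN, at a summed 4090 CPM. Monocytes/macrophages (403 cells) had all 9 of 9, summed to 22027 CPM and led by C1QA. At Timepoint 2 the 7 endothelial markers summed to 2538 CPM in 831 vascular endothelial cells, and the 9 macrophage markers to 3156 CPM in 141 monocytes/macrophages. The cultured macrophages differed from those of muscle beyond class II: the 3 FAP markers PDGFRA, DCN and LUM summed to 1333 CPM (881 to 1918 over 7 donors) against 157 CPM at Timepoint 1 (10.3 to 466), and C1QA was at 444 against 8019 CPM. The neutrophil marker S100A12 was at 3372 against 650 CPM. Over donors the 3 neutrophil markers summed to 1846 to 5298 against 3.70 to 2871 CPM, which overlapped. CSF3R was at 0 at Timepoint 2 and CXCR2 at both timepoints. Markers of the other cells known for class II were lower in the cultured macrophages. All 6 of 6 dendritic cell markers were seen in the macrophages of muscle, at a summed 90.2 CPM (25.9 to 432 over 10 donors) and with a UMI in 18.6% of cells, against 3 of 6 at 17.2 CPM (0 to 38.0 over 7 donors) and in 2.84% of cells at Timepoint 2, with FLT3, CLEC9A and XCR1 at 0. The 4 B cell markers summed to 29.4 CPM (0 to 253) and were all at 0 at Timepoint 2. The part of this shift in the results below was not tested.

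In muscle, CD74 and BOLA-DRA were found at high levels in macrophages and vascular endothelial cells and at low levels elsewhere. CD74 in macrophages ran from 7112 to 14071 CPM over 10 donors with a median of 10175 (mean 10303 ± 2253, SD). In vascular endothelial cells it ran from 1717 to 2674 CPM with a median of 2149 (2162 ± 283, SD, n = 10). Every donor's macrophages were above every donor's vascular endothelial cells. BOLA-DRA, the alpha chain of the DR dimer, ran from 3856 to 8227 CPM in macrophages (6478 ± 1252, SD, n = 10) and from 775 to 1148 CPM in vascular endothelial cells (923 ± 129, SD, n = 10). Both genes therefore kept the same order, macrophages above vascular endothelium, in all 10 donors, and macrophages with 9.17% of the cells held 72.9% of the CD74 UMIs, while vascular endothelial cells with 26.5% of the cells held 25.3%.

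Below these 2 types the levels overlapped. CD74 of lymphatic endothelial cells was 15.2, 44.6, 123 and 535 CPM in its 4 donors (179 ± 241, SD), so that donor 4 carries the mean. Over all 81 cells the level was 156 CPM, and it was 419 CPM in the 13 cells left without the 68 that had a UMI of a leukocyte or macrophage marker. MRC1 alone gave 108.5 of the 178.6 CPM of macrophage markers in these cells, so such a UMI does not mark a cell as a leukocyte. Mean CD74 was 96.7 ± 70.6 CPM in smooth muscle and mesenchymal cells (SMMCs, SD, n = 10), 89.8 ± 81.1 CPM in B/T/NK lymphocytes (SD, n = 10), 32.3 ± 23.1 CPM in SCs (SD, n = 10) and 18.3 ± 8.16 CPM in FAPs (SD, n = 10). The ranges of lymphatic endothelial cells, SMMCs, lymphocytes and SCs overlapped, and their order is not beyond the spread over donors. In tenocytes 0 of 23 cells had a CD74 UMI, which allows a level of up to 21.1 CPM.

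**Figure D1:**
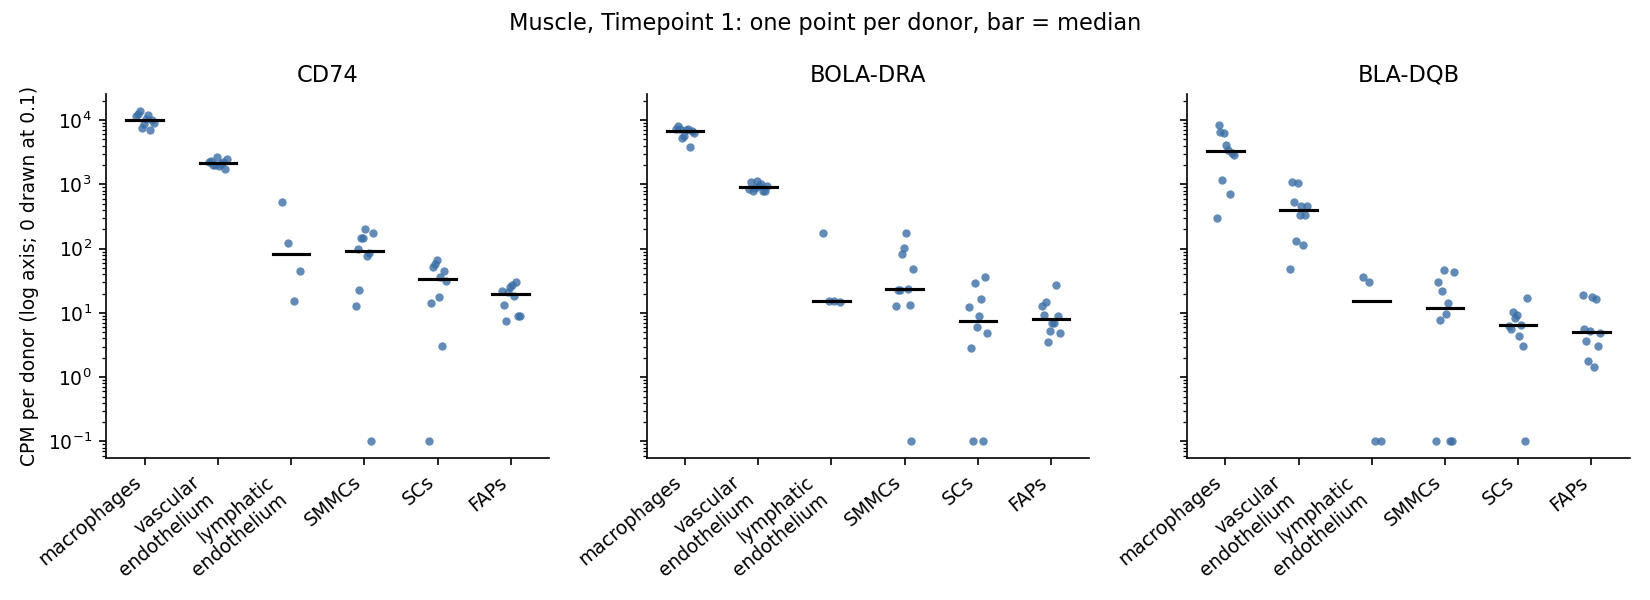
CPM of CD74, BOLA-DRA and BLA-DQB (log axis) in 6 deposited cell types of muscle at Timepoint 1, with 1 point per donor, the bar at the median and values of 0 drawn at 0.1. Macrophages and vascular endothelial cells stand above the other types for CD74 and BOLA-DRA, and the points of BLA-DQB spread far more over donors.

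Shares of cells gave the same picture. A CD74 UMI was found in 95.3% of macrophages (95% exact binomial interval 92.7 to 97.1%) and in 92.7% of vascular endothelial cells (91.1 to 94.1%), against 7.88% of SCs and 7.55% of FAPs, which are not known for class II and are taken here as the background that free RNA gives. Median depth was 6108 UMIs per cell in macrophages, 2778.5 in vascular endothelial cells, 3861 in SCs and 6213 in FAPs. With every cell thinned to 1500 UMIs the shares were 94.3%, 89.8%, 3.65% and 2.73%. Intervals cover counting error only. In vascular endothelial cells the 9 macrophage markers summed to 61.6 CPM, the 4 B cell markers were at 0 and the 6 dendritic cell markers summed to 0.733 CPM. The 864 vascular endothelial cells without a UMI of a leukocyte or macrophage marker had CD74 at 2148 CPM, and 91.6% of them had a CD74 UMI.

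The other class II genes followed in the same 2 types. BLA-DQB, a DQ beta chain, had a mean of 3674 ± 2666 CPM in macrophages (SD, n = 10) and 456 ± 366 CPM in vascular endothelial cells (SD, n = 10). BOLA-DQB, a further DQ beta gene, had 556 ± 417 and 79.2 ± 53.6 CPM, and BOLA-DQA5, a DQ alpha chain, 306 ± 343 and 47.0 ± 59.0 CPM. The DQ genes are close copies of each other and differ between animals, so how reads were shared among them is uncertain. Of the DM chains, BOLA-DMA had 489 ± 95.9 CPM in macrophages and 153 ± 60.3 CPM in vascular endothelial cells, and BOLA-DMB 602 ± 108 and 100.2 ± 34.5 CPM.

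The DO chains were found in macrophages and hardly in endothelium. BOLA-DOA was at 55.5 ± 16.2 CPM and BOLA-DOB at 69.2 ± 46.6 CPM in macrophages (SD, n = 10), whereas all 1166 vascular endothelial cells held 3 BOLA-DOA and 2 BOLA-DOB UMIs. Of the cells labelled macrophages, 4.47% had a UMI of a B cell marker and 18.6% of a dendritic cell marker. The part of such cells in the DO levels, here and below, was not tested. CIITA was at 15.5 ± 14.4 CPM in macrophages (41 UMIs) and 3.00 ± 3.04 CPM in vascular endothelial cells (16 UMIs). BOLA-DYA and BOLA-DYB, of the DY pair, had 2 and 4 UMIs in all cells of the series, which is too few to describe.

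Macrophages and vascular endothelial cells also differed in the ratio of CD74 to BOLA-DRA. Macrophages had 1.56 CD74 UMIs per BOLA-DRA UMI, with donors between 1.42 and 1.95, and vascular endothelial cells had 2.33, with donors between 2.04 and 2.90. The ranges of the 10 donors did not overlap. The ratio was 2.38 in FAPs (65 BOLA-DRA UMIs) and 3.04 in SCs (28 UMIs). UMIs of CD74, BOLA-DRA and BLA-DQB were found together in 356 of 403 macrophages (88.3%) and in 525 of 1166 vascular endothelial cells (45.03%).

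Vascular endothelial cells were split by vessel markers to compare class II between cells with a venous and an arterial marker. No difference passed the test for any of the 10 genes compared within the 10 donors. This does not show that veins and arteries are alike, since the split is rough. In SMMCs the venous list summed to 960 CPM and the arterial list to 688 CPM, against 453 and 348 CPM in vascular endothelial cells. A further 174 cells had both kinds of marker. Median depth was 4113 UMIs in the venous class and 2629 in the arterial class. Cells with a venous marker alone (263) had CD74 at 1955 to 2843 CPM over donors (2312 ± 289, SD) and those with an arterial marker alone (345) at 1046 to 2876 CPM (2005 ± 593, SD). The difference on the log2(CPM + 10) scale was 0.26 (SE 0.12), higher in venous cells in 6 of 10 donors, with an exact permutation p of 0.0547 by sign changes and an adjusted p of 0.439. For BOLA-DRA it was 0.18 (SE 0.13, exact permutation p = 0.176, adjusted p = 0.439), higher in venous cells in 7 of 10 donors. As a description, the 1022 cells with a capillary marker had CD74 at 2322 CPM and the 144 without at 1469 CPM, at median depths of 2715 and 4223.5 UMIs.

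After 72 h in culture CD74 was nearly gone from vascular endothelial cells, while BLA-DQB was kept in part. The fall of CD74 and BOLA-DRA chose these genes, and all values of this comparison are given without a test. CD74 ran from 0 to 4.84 CPM over 9 donors with a median of 3.15, far below the lowest donor of muscle, with a log2 fold change (log2FC) of -9.54. BOLA-DRA ran from 8.19 to 24.9 CPM with a median of 16.1 (log2FC -5.82), also without overlap. Of the DM chains BOLA-DMA went from a mean of 153 to 2.40 CPM (-5.88) and BOLA-DMB from 100.2 to 10.8 CPM (-3.60), and neither overlapped. CIITA had 16 UMIs at Timepoint 1 and 2 at Timepoint 2.

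BLA-DQB had the smallest fitted change of the 6 members that passed the filter on low counts. It ran from 5.03 to 345 CPM over the 9 donors with a median of 148, against 48.5 to 1100 CPM in muscle (log2FC -1.86), and the ranges overlapped. It was lower in 8 of 9 donors and higher in donor 9, which went from 328 to 345 CPM. A BLA-DQB UMI was found in 341 of 831 cells (41.0%, and 11.9% of cells thinned to 1500 UMIs), against 3.46% of FAPs of the same library, and 270 of these 341 cells (79.2%) had neither a CD74 nor a BOLA-DRA UMI. The ranges of the other DQ genes overlapped too. BOLA-DQB went from 79.2 CPM (16.6 to 160) to 8.99 CPM (0 to 29.7), a log2FC of -3.68. In donors 5 and 6 it went from 70.7 to 28.8 and from 146 to 29.7 CPM, and BLA-DQB from 1063 to 324 and from 334 to 64.5 CPM. BOLA-DQA5, under the filter, went from 47.0 CPM (0 to 147) to 1.37 CPM (0 to 7.19). The leukocyte markers PTPRC, CD53 and LAPTM5 summed to 58.4 CPM in these cells at Timepoint 1 and 124 CPM at Timepoint 2, nearly all of it LAPTM5, with PTPRC at 0 at Timepoint 2, and their part in the levels was not tested. In the 250 cells without a UMI of a leukocyte or macrophage marker BLA-DQB was at 75.1 CPM, against 93.4 CPM over all 831 cells.

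Other genes of antigen presentation are given for vascular endothelial cells over the same interval. The fit's call limits (adjusted p under 0.05 and an absolute log2FC over 1) served to choose which are named, and the values are a description, since this contrast chose the class II genes. Of 13 tested class I genes 6 were past these limits as lower and 0 as higher, where 19.6% of all 5896 genes were lower and 15.6% higher. Largest were the changes of the class I heavy chains JSP.1 (log2FC -2.36) and BOLA (-1.35), of TAPBP (-1.34), the peptide-loading factor tapasin, and of BOLA-NC1 (-1.33). The protease CTSS, which cuts the invariant chain, was lower (-1.88), and so were IFNGR1 (-2.33), a chain of the interferon gamma receptor, and IRF1 (-1.68). Others were higher: the lysosomal protease LGMN (1.60), NFYA (1.49), a subunit of a factor that binds class II promoters, the co-stimulatory receptor CD40 (1.40), and of the ligands and partners of CD74, DDT (1.66) and CXCR4 (3.03). Tested were 5 genes of lysosomal processing, 4 of the class II transcription complex and 5 of the interferon gamma pathway. There were also 1 of co-stimulation and 4 ligands and partners. No other gene of these lists was past the limits. CXCR4 went from 89.4 ± 36.9 to 775 ± 371 CPM, without overlap. Of the RFX factors that act with CIITA, RFXANK was at 44.8 ± 16.7 and 56.9 ± 5.89 CPM, and RFX5 and RFXAP missed the filter. IFNG had a mean of 0.485 CPM at Timepoint 1 and was at 0 at Timepoint 2.

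**Figure D2:**
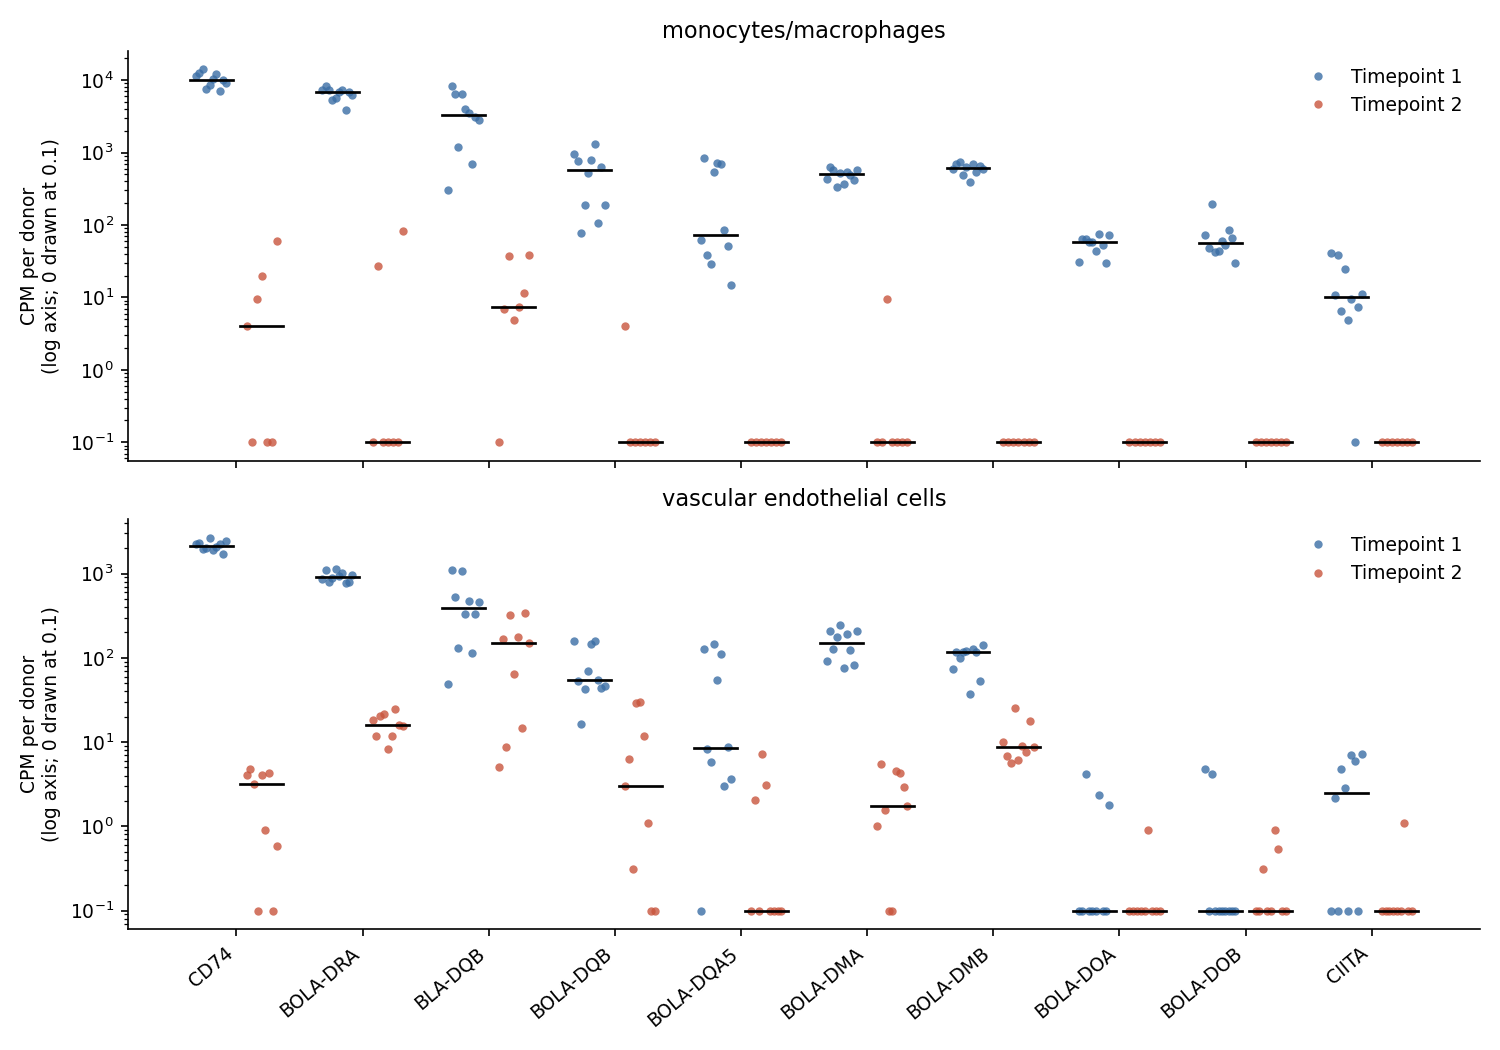
CPM per donor (log axis, 0 drawn at 0.1) of 10 class II genes in macrophages and vascular endothelial cells, with Timepoint 1 in blue (10 donors), Timepoint 2 in red (7 and 9 donors) and the bar at the median. Nearly all genes lie far lower at Timepoint 2, and BLA-DQB of vascular endothelial cells is the one with red points up to 345 CPM.

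CD74 and BOLA-DRA were also lower in cultured macrophages, here with a test that needs no filter. CD74 ran from 0 to 59.7 CPM over 7 donors with a median of 3.98, against 7112 to 14071 CPM in muscle. The log2FC was -9.44 (SE 0.46, edgeR), lower in 7 of 7 donors and without overlap. BOLA-DRA ran from 0 to 81.4 CPM with a median of 0 (log2FC -8.60, SE 0.57, edgeR), lower in 7 of 7 donors. With no filter and no fit, an exact two-sided permutation test of the donors' values on log2(CPM + 10) gave a difference of -9.15 (SE 0.41) for CD74 and -8.59 (SE 0.50) for BOLA-DRA, each with p = 0.000103 (adjusted over 6 tests 0.000309), the smallest that the 19448 splits allow. The test did not pair the values of a donor, although these 7 donors were the same animals at both timepoints. The 7 donors had 17 CD74 and 19 BOLA-DRA UMIs in all at Timepoint 2, so the size of these falls rests on few counts. Both genes passed the filter of the fit through the muscle samples, so no p of the fit is given. The levels of the timepoints lie far apart beside the spread over donors.

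The DQ and DM chains were lower as well. BLA-DQB went to 15.2 ± 15.9 CPM (log2FC -8.09, SE 0.92), on 15 UMIs. BOLA-DQB went from 1613 UMIs to 1 (0.569 ± 1.51 CPM) and BOLA-DMA from 1268 UMIs to 1 (1.35 ± 3.58 CPM). No p is given for any of these genes. BOLA-DMB had no UMI at Timepoint 2 in the 7 donors fitted and was at least 224-fold lower there, against a floor of 3 counts over the group. BOLA-DQA5, the DO chains and CIITA did not pass the filter on low counts and had no UMI in these donors at Timepoint 2: BOLA-DQA5 was at least 145-fold lower, BOLA-DOA at least 21.9-fold, BOLA-DOB at least 20.2-fold and CIITA at least 5.91-fold. The 6 members that passed the filter were called lower by the limits given above, where 20.4% of all 2896 genes tested were and 14.3% were higher. They had between 0 and 19 UMIs each at Timepoint 2 in the 7 donors and passed the filter through the muscle samples, so nothing is read from this count. BLA-DQB of macrophages, unlike that of vascular endothelial cells, did not overlap between the timepoints.

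The few class II UMIs left in cultured macrophages lay in very few cells. Of the 141 cells 5 had a CD74 UMI, 99 UMIs in all, and 1 cell of donor 2 held 82 of them (82.8%). That cell also held 36 BOLA-DRA, 17 BLA-DQB and 10 BOLA-DMB UMIs. Its 14 UMIs of the dendritic cell list were all of FCER1A, with the other listed markers at 0. It also had 12 UMIs of macrophage markers and 17 of leukocyte markers. The next, of donor 10, held 11 CD74 UMIs, 4 of CCR7 and 3 of LAMP3, which mark mature dendritic cells. Without the cells that had 5 or more CD74 UMIs the level was 4.54 CPM. Donor 2 had fewer than 10 such cells and did not enter the fit.

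CD74 was also lower at Timepoint 2 in SMMCs and in FAPs, whose level in muscle was taken above as free-RNA background. A CD74 UMI was found in 7.55% of FAPs at Timepoint 1 and in 0.382% at Timepoint 2, and in 2.73% and 0.0348% of cells thinned to 1500 UMIs. Over the same interval macrophages went from 9.17% to 1.47% of the cells and CD74 of the whole library from 1679 to 0.860 CPM, and whether the UMIs in stromal cells came from these cells was not tested. The values of FAPs, SMMCs and SCs are levels measured in 2 libraries, free RNA included, and those of CD74 and BOLA-DRA in FAPs and SMMCs are given without a p. In FAPs CD74 ran from 7.39 to 30.1 CPM in muscle and from 0.0906 to 0.317 CPM at Timepoint 2 (log2FC -6.46), lower in 9 of 9 donors without overlap. BOLA-DRA went from 10.1 ± 6.93 to 0.121 ± 0.087 CPM (log2FC -5.96). These 2 were the only members that passed the filter, and among all 9208 genes 22.5% were lower. Both passed through the muscle samples, with 26 and 16 UMIs at Timepoint 2, so nothing is read from the count. After thinning neither passed the filter, and BOLA-DRA missed it without donor 5. With the donor as a block BOLA-DMB (log2FC -1.39, edgeR) and BLA-DQB (-2.40, edgeR) were called lower as well. They too are given without a p, and nothing is read from these calls. In SMMCs CD74 went from 96.7 ± 70.6 to 0.742 ± 1.96 CPM (log2FC -7.87), lower in 6 of 7 donors. It was the one member tested, with 1 UMI at Timepoint 2 against 232, and 21.3% of 3454 genes were lower, from which nothing is read for the same reason. It could not be fitted with the donor as a block or without donor 5, since it then missed the filter, nor with the libraries thinned to the smallest. The macrophage markers fell beside it, from 84.2 to 22.2 CPM in FAPs and from 35.4 to 11.8 CPM in SMMCs, and their part in the fall was not tested.

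No member passed the filter in lymphatic endothelial cells or SCs, so CD74 and BOLA-DRA were tested there as single values with an exact two-sided permutation test on log2(CPM + 10). In lymphatic endothelial cells CD74 went from 179 ± 241 to 2.11 ± 3.86 CPM over 4 and 7 donors, a difference of -3.10 (SE 0.96, exact p = 0.00606, adjusted over 6 tests 0.00606). That p is the smallest that the 330 splits allow, and the lowest muscle donor had 1 UMI. The muscle range overlapped that of SCs, taken as free-RNA background. This p therefore does not alone show a fall within lymphatic endothelial cells. BOLA-DRA had 10, 1, 1 and 1 UMIs in the muscle donors and 0 in culture, and nothing is read from its test (-2.06, SE 0.73, exact p = 0.00606), since 1 UMI put a muscle donor above every culture donor. In SCs CD74 went from 32.3 ± 23.1 to 0.176 ± 0.229 CPM (-1.79, SE 0.32, exact p = 0.000217, adjusted p = 0.000433) and BOLA-DRA from 11.7 ± 12.4 to 0.0729 ± 0.157 CPM (-0.92, SE 0.24, exact p = 0.00119, adjusted p = 0.00179). The muscle level of SCs is also one taken as free-RNA background, so these p-values do not show a fall within SCs. None of these tests paired the values of a donor seen at both timepoints.

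The fall in macrophages was then compared with that in the other types, vascular endothelial cells left out, as a difference of changes fitted over all genes with edgeR. For CD74 the fitted difference of log2FC between macrophages and FAPs was -2.88 (SE 0.68, edgeR). It rests on few UMIs in cultured macrophages and 26 in cultured FAPs, so no p is given and no further fall is read from it. Since the muscle level of FAPs and SCs was taken as free-RNA background, differences against them set a change in macrophages beside a change in that background. The difference did not pass against lymphatic endothelial cells (-3.78, SE 1.82, adjusted p = 0.19, edgeR), SCs (-2.67, SE 1.55, adjusted p = 0.20, edgeR) or SMMCs (SE 13.3, adjusted p = 0.95, edgeR), and these wide errors do not show that the falls were alike. DESeq2 called CD74 against lymphatic endothelial cells (-3.53, SE 1.16) and SCs (-2.02, SE 0.80), on the same few counts, and nothing is read from these calls. BOLA-DRA had a fitted difference of -2.59 against FAPs (SE 1.01, edgeR), with 16 UMIs in cultured FAPs. Its call was lost with the donor as a block (adjusted p = 0.094, edgeR).

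The DM chains had 1 BOLA-DMA and 0 BOLA-DMB UMIs in the cultured macrophages fitted, so the size of their differences rests on the prior count or on 1 UMI. In FAPs BOLA-DMA was at 3.85 ± 2.91 and 2.42 ± 1.35 CPM and BOLA-DMB at 3.06 ± 2.57 and 1.44 ± 0.702 CPM, with ranges that overlapped. BOLA-DMA had fitted differences of -8.47 (SE 0.82) against FAPs, -6.66 (SE 1.01) against SMMCs, -6.62 (SE 0.87) against SCs and -4.60 (SE 2.35) against lymphatic endothelial cells. As for its fall in macrophages no p is given, and nothing is read from the differences of BOLA-DMB. Those of BLA-DQB were -5.93 (SE 1.25), -3.92 (SE 2.99), -5.75 (SE 1.26) and -6.81 (SE 2.49) in the same order. They rest on few UMIs in cultured macrophages and are also given without a p. In all 6 of 9 members were called against FAPs, where 25.3% of all genes were, 3 of 9 against SCs (21.4%), 2 of 8 against SMMCs (20.6%) and 1 of 9 against lymphatic endothelial cells (11.9%). The 6 include BOLA-DOB (-11.56, SE 4.41, adjusted p = 0.040, edgeR), which DESeq2 did not call (-1.70, adjusted p = 0.29). With DESeq2 the counts were 6, 5, 6 and 5. With the donor as a block BLA-DQB was also called against lymphatic endothelial cells (-6.38), and BOLA-DQB (-5.70) and BOLA-DQA5 against FAPs. BOLA-DQA5 and the DO chains had no UMI and BOLA-DQB 1 in the cultured macrophages fitted, and the same holds for their differences. The members had few or no UMIs in cultured macrophages, so nothing is read from these counts.

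Other presentation genes of macrophages are read against the 20.4% of all genes called lower and the 14.3% called higher. CTSS fell from 2138 ± 325 to 961 ± 332 CPM (log2FC -1.23, SE 0.16, adjusted p = 4.8e-07, edgeR), as 1 of 6 tested genes of lysosomal processing, a share near that of all genes. Of 12 tested class I genes JSP.1 (log2FC -1.78), PSMB9 (-1.15) and BOLA (-1.14) fell and CALR, the chaperone calreticulin, rose (1.39), again shares near those of all genes. IFNGR1 (-1.99) and IRF1 (-1.14) fell, as 2 of 4 tested genes of the interferon gamma pathway. The co-stimulatory CD86 fell from 190 ± 48.7 to 13.0 ± 11.9 CPM (-3.97), as 1 of 2 tested co-stimulation genes. CXCR4, a partner of CD74 at the cell surface, fell from 495 ± 181 to 15.7 ± 6.69 CPM (-5.06), as 1 of 4 tested ligands and partners of CD74. None of the 7 genes of the class II transcription complex passed the filter, and IFNG had no UMI.

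Calves and adults were compared in muscle within macrophages and vascular endothelial cells. BOLA-DMA of vascular endothelial cells was lower in every adult than in every calf but missed the fold limit. The 5 calves ran from 175 to 246 CPM with a median of 206 (206 ± 26.1, SD), and the 5 adults from 75.1 to 129 CPM with a median of 92.1 (100.5 ± 24.2, SD). The log2FC was -0.996 (SE 0.18, adjusted p = 0.0046, edgeR), and it passed the limit without donor 3, 4, 7, 8 or 10, with a range of -1.09 to -0.91 over the donors left out in turn.

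The other class II genes of vascular endothelial cells overlapped between the ages. The log2FC was -0.17 for CD74 (SE 0.12, adjusted p = 0.57, edgeR), -0.27 for BOLA-DRA (SE 0.12, adjusted p = 0.31, edgeR), -0.66 for BOLA-DMB (SE 0.23, adjusted p = 0.16, edgeR) and -1.22 for BLA-DQB (SE 0.72, adjusted p = 0.50, edgeR). So 0 of 6 tested members were called, where 0.243% of all genes were lower in adults. In macrophages 0 of 9 tested members were called, where 0.0712% of genes were lower, and CD74 had a log2FC of 0.09 (SE 0.17, adjusted p = 0.94, edgeR). BOLA-DOB of macrophages was at 29.6 to 52.4 CPM in calves and 59.2 to 194 CPM in adults, without overlap, and did not pass the test (log2FC 0.96, SE 0.31, adjusted p = 0.35, edgeR). Ages and sexes were not balanced, with 3 males among the donors.

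The ratio of the highest to the lowest donor in muscle was larger for the DQ genes than for the other class II genes. It was 9.64 to 56.1 for the DQ genes and 1.48 to 6.56 for the others, over macrophages and vascular endothelial cells and where no donor was at 0. BLA-DQB of macrophages in donors 1 to 10 was 304, 8281, 6486, 1188, 6356, 4037, 3484, 695, 3053 and 2853 CPM, and the highest donor was 27.2 times the lowest. In vascular endothelial cells of the same donors it was 48.5, 1100, 523, 130, 1063, 334, 468, 115, 328 and 455 CPM, a ratio of 22.7. Donors 1, 4 and 8 were the 3 lowest in both cell types. For CD74 the ratio of the highest to the lowest donor was 1.98 in macrophages and 1.56 in vascular endothelial cells, and for BOLA-DRA 2.13 and 1.48. BOLA-DOB of macrophages came nearest to the DQ genes, with a ratio of 6.56 and a coefficient of variation of 67.3%, against 67.7% for BOLA-DQB of vascular endothelial cells and 72.6% for BLA-DQB of macrophages. The ratio was 3.80 for BOLA-DMB and 3.27 for BOLA-DMA in vascular endothelial cells.

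A donor's BLA-DQB level in macrophages went with that in vascular endothelial cells. Over the 10 donors Pearson's r was 0.963 (permutation p = 5e-05, adjusted over 25 relations 0.00125) and Spearman's rho 0.927 (permutation p = 0.00046, adjusted 0.0115) on the log2(CPM + 10) scale. Without donors 1 and 8, the farthest from the median, r was 0.915. Since donors 1, 4 and 8 lie below a gap, r was also taken over the other 7 donors, where it was 0.808 (exact permutation p = 0.0315, adjusted over 7 relations 0.0442) with rho 0.786 (exact permutation p = 0.0480, adjusted 0.0704). Both levels came from 1 library. As said above, the DQ genes differ between animals and the sharing of their reads is uncertain. The part of this in the donors' DQ levels, here and in the relations below, was not tested.

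No such relation passed for CD74 (r = -0.207, permutation p = 0.565, adjusted 0.785, rho -0.176, permutation p = 0.632) or BOLA-DRA (r = 0.332, permutation p = 0.360, adjusted 0.562, rho 0.285, permutation p = 0.428). BOLA-DQB had r = 0.794 (permutation p = 0.00628, adjusted 0.0523) and rho 0.782 (permutation p = 0.0104, adjusted 0.131), and r was 0.735 without donors 3 and 8. BOLA-DQA5 fell into separate clusters, with donors 2, 5, 6 and 7 between 532 and 829 CPM in macrophages and the other donors between 14.8 and 84.3 CPM, so no r is given. The same 4 donors were the highest in vascular endothelial cells, between 54.3 and 147 CPM, with the others at up to 8.74 CPM. Its rho of 0.624 did not pass (permutation p = 0.0602, adjusted 0.301). Of the 25 relations computed, that of BLA-DQB alone had an adjusted p under 0.05 for both r and rho.

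Of the donors' BLA-DQB levels, the low ones were again low in cultured vascular endothelial cells. Donors 1, 2 and 4 to 10 had 5.03, 168, 8.81, 324, 64.5, 177, 14.6, 345 and 148 CPM at Timepoint 2, so that donors 1, 4 and 8 were again the 3 lowest. Donor 9 was now the highest, and donor 2, the highest in muscle, was below donors 5, 7 and 9. Over the 9 donors r with Timepoint 1 was 0.875 (exact permutation p = 0.00239, adjusted over 7 relations 0.00561), while rho was 0.683 and did not pass (exact permutation p = 0.0503, adjusted 0.0704). Without donors 1 and 2 r was 0.869. Over the 6 donors above the gap r was 0.326 (exact permutation p = 0.515, adjusted 0.601) and rho -0.0286, so this relation rests on the 3 low donors. Against macrophages of muscle r was 0.856 over 9 donors (exact permutation p = 0.00415, adjusted 0.00727, rho 0.683) and 0.0829 over the 6 donors above the gap (exact permutation p = 0.858), so it rests on the same 3 donors.

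**Figure D3:**
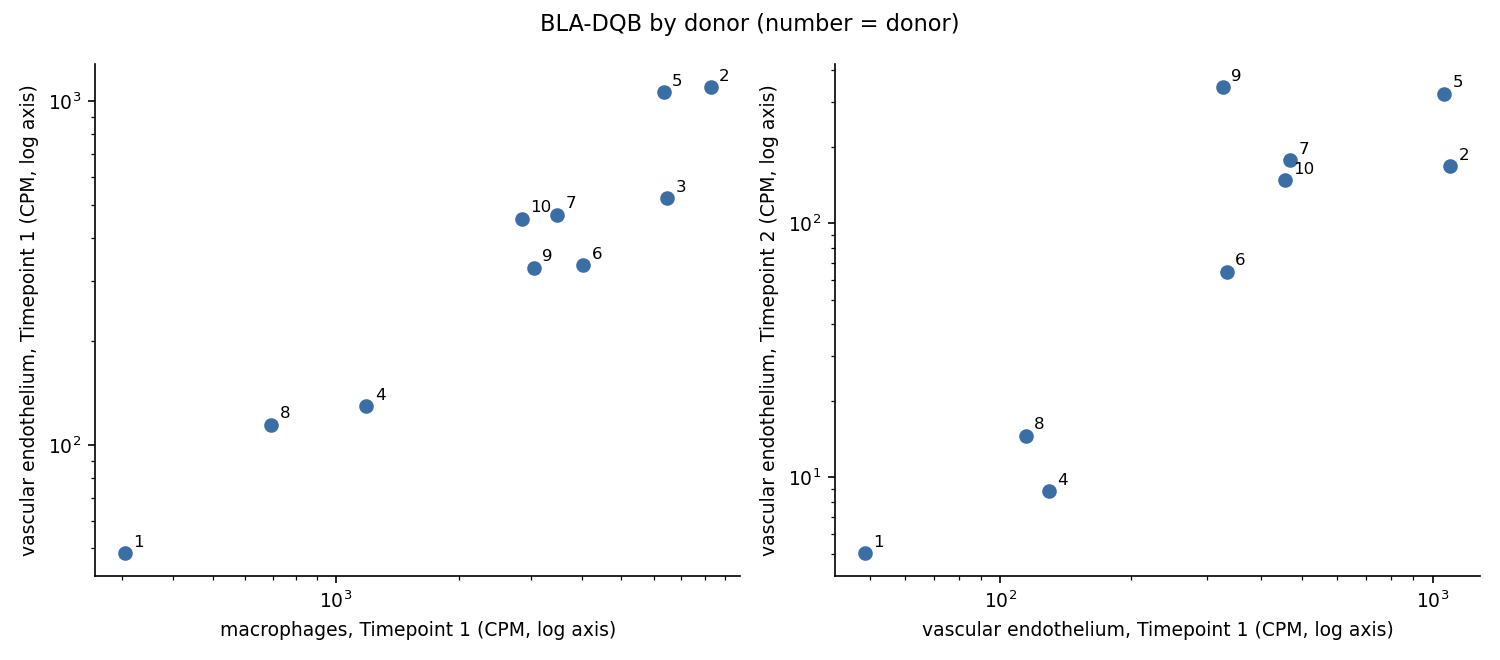
BLA-DQB in CPM (log axes) per donor, with donor numbers beside the points, for macrophages against vascular endothelial cells at Timepoint 1 (left, 10 donors) and for vascular endothelial cells at Timepoint 1 against Timepoint 2 (right, 9 donors). Donors 1, 4 and 8 lie lowest in both panels.

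In the later passages only FAPs and SCs were left in number, and CD74 and BOLA-DRA were all but absent. FAPs had no CD74 UMI in 4987, 6819 and 2616 cells of Timepoints 3, 4 and 5, which allows up to 0.0199, 0.0187 and 0.0591 CPM. SCs had 3, 2 and 0 CD74 UMIs, and BOLA-DRA was at 0 in both types at all 3 timepoints. Between Timepoints 2 and 3 CD74 of FAPs was at least 9.56-fold lower and BOLA-DRA at least 5.88-fold lower, both under the filter and untested.

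BOLA-DMB went the other way in FAPs. It ran from 0.681 to 2.99 CPM over 9 donors at Timepoint 2 with a median of 1.29 and from 2.67 to 20.6 CPM over 8 donors at Timepoint 3 with a median of 5.24. The log2FC was 2.79 (SE 0.36, adjusted p = 2.9e-06, edgeR), higher in 8 of 8 donors although the ranges overlapped. The lowest donors at Timepoint 3 rest on few counts, donor 10 on 1 UMI in 12 cells and donor 5 on 2 UMIs in 19 cells. It was 8.76 ± 5.19 CPM at Timepoint 4 and 10.2 ± 4.29 CPM at Timepoint 5 (SD, n = 9), against 3.06 ± 2.57 CPM in muscle. BOLA-DMA, its partner chain, did not pass (log2FC -0.49, SE 0.33, adjusted p = 0.20, edgeR). Of the 2 members tested 1 was called higher, where 11.3% of 11384 genes were, and neither passed the filter after thinning to the smallest pseudobulk.

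The share of FAPs with a BOLA-DMB UMI was 2.97% at Timepoint 2 and 21.2%, 17.3% and 16.3% at Timepoints 3, 4 and 5, and 0.174%, 1.42%, 1.26% and 1.57% in cells thinned to 1500 UMIs. Donor 9 was the highest of all at each of these timepoints, with 2.99, 20.6, 17.8 and 18.9 CPM. Over 8 donors r was 0.942 between Timepoints 2 and 3 (exact permutation p = 0.00208, adjusted over 7 relations 0.00561) with rho 0.786 (exact permutation p = 0.0279, adjusted 0.0704), and 0.660 without donors 1 and 9. Between Timepoints 3 and 5 r was 0.904 (exact permutation p = 0.00241, adjusted 0.00561) with rho 0.857 (exact permutation p = 0.0107, adjusted 0.0704), and 0.843 without donors 1 and 9. Donors 5 and 10 entered both relations with 2 and 1 UMIs at Timepoint 3. Each donor stayed in 1 kind of culture from Timepoint 3 on, so donor and culture cannot be told apart there. In SCs BOLA-DMB had means of 1.47, 3.13, 3.70 and 5.81 CPM at Timepoints 2 to 5, with no test, since it missed the filter.

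**Figure D4:**
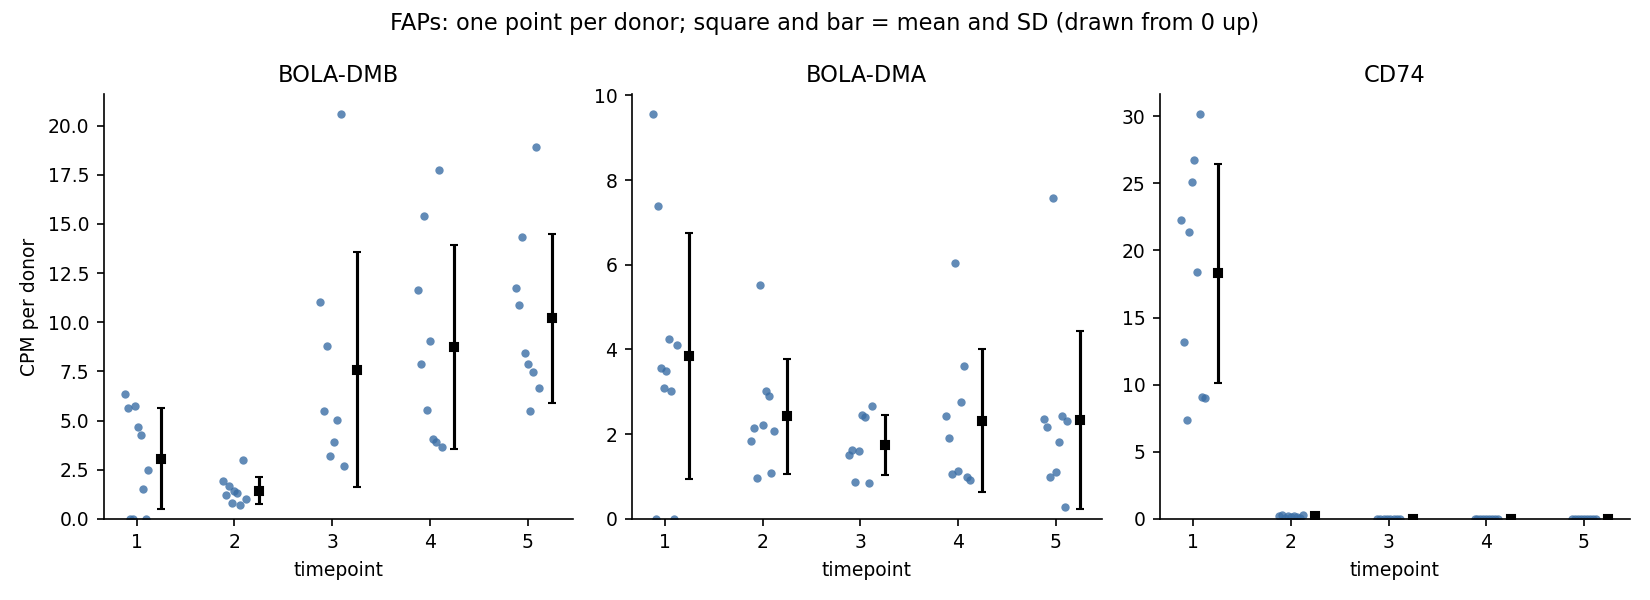
CPM of BOLA-DMB, BOLA-DMA and CD74 in FAPs (linear axes from 0) at Timepoints 1 to 5, with 1 point per donor and the square and bar at the mean and SD. BOLA-DMB is higher from Timepoint 3 on, and CD74 is at 0 from Timepoint 3 on.

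Other presentation genes rose in FAPs between the same timepoints. Of 14 tested class I genes 9 rose, where 11.3% of all genes did, with JSP.1 (log2FC 2.63), BOLA (2.58), the immunoproteasome subunits PSMB9 (2.35) and PSMB10 (2.10) in front. Against the same 11.3%, 5 of 7 tested genes of lysosomal processing rose, with CTSS from 13.2 ± 2.00 to 121 ± 81.6 CPM (log2FC 3.39, SE 0.32, adjusted p = 8.8e-08, edgeR), IFI30 (2.41), CTSH (2.17) and CTSD (1.79). Of 12 tested genes of the interferon gamma pathway 7 rose, again against 11.3%, among them GBP5 (2.42), GBP4 (2.40), CXCL9 (2.28) and GBP2 (2.26), while IFNG had no UMI. RFX5, RFXANK and RFXAP were tested and not called, and CIITA had no UMI at either timepoint.

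BLA-DQB of the passaged cells was found mainly in donor 6. Its FAPs had 9.45 CPM at Timepoint 2, 5.64 at Timepoint 4 and 4.30 at Timepoint 5, with fewer than 10 cells at Timepoint 3. FAPs of the other donors were at up to 1.35 CPM at Timepoint 2 and up to 0.432 CPM at Timepoints 3 to 5. SCs of donor 6 had 3.32, 1.74, 1.26 and 2.04 CPM at Timepoints 2 to 5, the last from 1 UMI. SCs of the other donors were at up to 1.90 CPM at Timepoint 2 and at up to 0.157 CPM later, apart from donor 2 with 2.15 CPM (6 UMIs) at Timepoint 3.

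Over 19 groups of cell type and timepoint, the genes whose mean log2(CPM + 1) went most closely with that of CD74 were listed as a description. BOLA-DRA was the first of 11089 genes (Pearson r = 0.976), followed by ENSBTAG00000013919 (0.970), ANKRD37 (0.962), TRAPPC11 (0.960), ENSBTAG00000009656 (0.946), ARID4A (0.938), MEF2A (0.935), SLC2A3 (0.933), MCL1 (0.933) and CCNL1 (0.932). The groups share libraries and donors. BOLA-DQA5 ranked 49, BLA-DQB 57, BOLA-DMA 66, BOLA-DQB 197, CIITA 565, BOLA-DMB 906, BOLA-DOB 953 and BOLA-DOA 1182.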

How the data were processed

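Single-cell libraries (10x Genomics 3′ chemistry) were made by the authors from pooled donors at each timepoint. Per the labels, reads were aligned with Cell Ranger 6.0.1 to ARS-UCD1.2, and the deposited values are raw UMI counts per gene and cell, with no normalization. The authors filtered cells, assigned donors by genotype and named cell types. Their cell table was used for kept cells, donor and type, and 12 of its columns were not used. The 8 records hold 5 libraries, since the 2 runs of Timepoints 2, 3 and 4 share a matrix. No doublet caller was run here.

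Pseudobulks of at least 10 cells were made from the UMIs of 1 donor in 1 cell type, and genes were filtered with edgeR's filterByExpr. Timepoints and ages were compared with edgeR 4.0.16 (quasi-likelihood, TMM, Benjamini-Hochberg) in R 4.3.3, with calls at adjusted p under 0.05 and absolute log2FC over 1. Interactions were fitted in the same way over macrophages and 1 other type. Donors are the same animals at each timepoint by genotype, so fits with the donor as a block were alternatives. Other alternatives were DESeq2 1.42.0, no filter, at least 30 cells, thinning, sex as a covariate, cells with other types' markers left out and each donor left out. Relations and single values used two-sided permutation tests (Python 3.11.15, scipy 1.17.1, numpy 2.4.6, pandas 2.3.3), and figures matplotlib 3.10.9. Single values of the timepoints were not paired by donor. Scripts were tested on simulated data. The members, gene lists and tests were chosen with earlier results of these data known, and relations over culture timepoints, the gap of donors, the single-value tests and the comparison of Timepoints 3 and 2 were added after seeing the data. Every gene found by the rule is named, with up to 4 called genes of each list by size of change, IFNG and the RFX genes. All 12 genes matched RefSeq names of assembly ARS-UCD2.0, used for names only, where BLA-DQB is a synonym of BOLA-DQB1. Donors are separate animals, but each timepoint is 1 library, so p-values measure the spread between donors.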

Additional observations from a re-analysis of the deposited data

Results flagged for a closer look

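Of 34 groups of donors looked at, 8 had a donor far from the others by Dixon's criterion. Chance meets it in about 1 in 20 groups of normally distributed values, a rate that does not hold for counts near 0. At Timepoint 2 in macrophages these were CD74 (59.7 CPM, next 19.5) and BOLA-DRA (81.4 CPM, next 27.4) in donor 10, both from 1 cell. BOLA-DMA in donor 5 (9.47 CPM) and BOLA-DQB in donor 1 (3.98 CPM) were 1 UMI each, with all others at 0. So was CD74 in SMMCs of donor 9 at Timepoint 2 (5.19 CPM). A single UMI among zeros meets the criterion by construction. The others were BOLA-DRA in FAPs of donor 8 at Timepoint 1 (27.1 CPM, next 14.8), BOLA-DMB in FAPs of donor 9 at Timepoint 3 (20.6 CPM) and BOLA-DMA in FAPs of donor 5 at Timepoint 2 (5.52 CPM, next 3.01).

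In 12 cases the fit called the change in macrophages different from that in another cell type. The cultured macrophages fitted had between 0 and 19 UMIs of each gene in all, so the sizes are uncertain and nothing is read from the number of cases. BOLA-DMB gave -8.23 against lymphatic endothelial cells, -9.20 against SMMCs, -12.89 against FAPs and -11.45 against SCs, and BOLA-DOB -11.56 against FAPs. Both had no UMI in the cultured macrophages fitted, so these 5 values depend on the prior count. That of BOLA-DOB (SE 4.41, adjusted p = 0.040, edgeR) was not called with DESeq2 (-1.70, adjusted p = 0.29). BOLA-DMA gave -6.66 against SMMCs, -8.47 against FAPs and -6.62 against SCs, BLA-DQB -5.93 against FAPs and -5.75 against SCs, CD74 -2.88 against FAPs and BOLA-DRA -2.59 against FAPs.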

How the results depend on the processing

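Apart from the fits that leave out a donor, 330 results kept their direction and side of the threshold or their size, 42 moved, 17 passed a threshold they had missed, 3 lost it and 10 changed sign. Without the filter on low counts the members called were 10 in macrophages (6 with it), 3 in lymphatic endothelial cells (0), 6 in SMMCs (1), 6 in FAPs (2) and 5 in SCs (0) for Timepoint 2 against 1, 4 in FAPs (1) and 2 in SCs (0) for Timepoint 3 against 2, and 1 in vascular endothelial cells of adults against calves (0). That last count was also 1 with thinned pseudobulks and without cells that carry other types' markers. Thinning gave 0 in SMMCs, in FAPs at Timepoint 2 and in FAPs at Timepoint 3. With the donor as a replicate block the count was 0 in SMMCs, 4 in FAPs and 14 for the differences between cell types (12 without it, 22 with DESeq2), and it was 6 in macrophages, as without it. No share of all genes stands beside these counts of members, and genes called in all moved with the filter and thinning too, as listed below. Nothing is read about class II from these counts. CD74 of lymphatic endothelial cells in muscle was 419 CPM without marker cells, against 156. Over the 6 donors above the gap the relation of BLA-DQB in vascular endothelial cells between Timepoints 1 and 2 had r = 0.326, against 0.875 over 9 donors.

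Signs changed only in comparisons that passed no test. In macrophages of adults against calves these were CD74 (-0.0119 without the filter, -0.0206 without marker cells), BOLA-DMB (0.0174 thinned), BOLA-DQB (0.66 with at least 30 cells, 0.10 with sex, 0.22 without marker cells), BOLA-DQA5 (0.28 with at least 30 cells) and BOLA-DRA (0.20 with at least 30 cells). BOLA-DQB of vascular endothelial cells was -0.0266 for age and -0.0885 for venous against arterial cells without marker cells. Leaving out 1 donor gave 0 to 1 members called in SMMCs (0 without donor 5), 1 to 4 in FAPs (1 without donor 5, 4 without donor 3) and 0 to 1 in vascular endothelial cells by age. The log2FC by age then ran from -1.09 to -0.91 for BOLA-DMA and -0.12 to 0.65 for BOLA-DQB of vascular endothelial cells, and in macrophages from -0.0322 to 0.19 for CD74, -0.18 to 0.0352 for BOLA-DMB, -0.49 to 0.35 for BOLA-DQB and -0.11 to 0.0865 for BOLA-DRA. The cause of these changes was not tested.

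Genes called in all, with the filter, without it and thinned, were 1003, 3389 and 466 in macrophages, 899, 1863 and 347 in lymphatic endothelial cells, 1257, 4216 and 474 in SMMCs, 3997, 6925 and 1677 in FAPs, 1789, 5286 and 533 in SCs and 2071, 5030 and 1172 in vascular endothelial cells for Timepoint 2 against 1, 2194, 3501 and 528 in FAPs and 984, 2097 and 376 in SCs for Timepoint 3 against 2, and by age 36, 116 and 31 in vascular endothelial cells (58 without donor 8) and 3, 54 and 1 in macrophages (0 to 4 with 1 donor left out). For Timepoint 2 against 1, fits with at least 30 cells could not be made in macrophages and lymphatic endothelial cells, nor could a fit without marker cells in the latter. CIITA and the DO genes had too few UMIs for a test in most cell types.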
